A study of Mus musculus with 10 samples.

Results

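The 8 genes described here, Hmx2, Hmx3, Lmo4, Chd7, Bmp2, Bmp4, Ntn1 and Lrig3, shape the semicircular canals of the inner ear. They were taken by name, with earlier results of these data known, and all 8 had a row among the 15472 genes of the deposited table. The libraries were made from whole inner ears of C57BL/6 mouse embryos at E16.5, late in gestation, with 5 samples homozygous for nmf219, an allele of the T-box transcription factor gene Tbx1 (genotype nmf219/nmf219, called nmf219 below), and 5 wild-type samples (+/+, called WT). The allele is in the germ line, so every tissue of the nmf219 ears carries it. The labels do not say whether each sample came from a separate embryo. The spread behind each p-value may be technical in part or, within nmf219, in whole. Y-linked RNA was found in WT replicates 3, 4 and 5 and not in 1 and 2, so the WT libraries cannot all be from a single embryo.

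The semicircular canals sense rotation of the head. They form when flat pouches bulge out of the otic vesicle, the walls of each pouch meet in a fusion plate, and the plate is cleared so that a tube remains. The homeobox factors Hmx2 and Hmx3 pattern the dorsal vesicle, bone morphogenetic proteins direct outgrowth, and netrin 1 detaches the epithelium of the fusion plate from its basement membrane. In the mouse all of this is over before the age sampled here, so the values describe RNA in ears whose canals had been laid out.

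None of the 8 genes passed the test for a difference between genotypes, and all differences were small. Bmp2 was the clearest, with every nmf219 library below every WT library and a mean 10.5% lower. Hmx2 was 11.7% lower in the mean, with ranges that overlapped. Lmo4, Bmp4 and Lrig3 were within 1.77% of WT in the mean. Chd7 and Ntn1 varied among libraries of the same genotype, and they did so in opposite directions. Their genotype means differed by 0.743 (Chd7) and 1.01 (Ntn1) times the SD pooled over the 2 genotypes.

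Each library held 35293445 to 40942278 reads in the listed genes in nmf219 and 31244799 to 41875972 in WT. Defining genes of the otic epithelium were present in all libraries, among them Oc90, the main matrix protein of otoconia, at a mean value of 1159 in nmf219 and 1172 in WT. The summed value of 11 otic epithelial genes was 2137 to 2458 in nmf219 and 2124 to 2369 in WT. The sums of 10 cartilage genes overlapped as well, at 18432 to 24948 in nmf219 and 19185 to 28480 in WT. Much of that sum was Col2a1, at a mean of 11948 in nmf219 and 12423 in WT. Of the 10 cartilage genes, 9 were lower in the nmf219 mean, with a median log2 fold change of -0.17. An unadjusted p under 0.05 with limma was found for 3, all lower, ranges were separate for 1, and 0 passed after adjustment. The 14 skeletal muscle genes summed to 1017 to 4200 in nmf219 and to 155 to 2575 in WT. All 14 were higher in the nmf219 mean, 13 of them at an unadjusted p under 0.05, with a median log2 fold change of 1.71, and 0 passed limma after adjustment. The 6 brain genes summed to 134 to 155 in nmf219 and 160 to 170 in WT, without overlap. Most of that sum was Zic1, at 104 in nmf219 and 122 in WT, which is also in the list of canal transcription factors. Lower nmf219 means were found for 5 of the 6. With limma 3 had an unadjusted p under 0.05, and 0 passed after adjustment. These 3 were Slc32a1, Dlx2 and Zic1, at log2 fold changes of -0.501, -0.312 and -0.224. Ranges were separate for 2, Zic1 and Slc32a1, and Slc32a1 was low, at 0.28 in nmf219 and 0.82 in WT. Gad2, at 2.03 in nmf219 and 1.98 in WT, was the 1 gene higher in the mean. Tbx1 itself was at 25.2 ± 2.02 in nmf219 and 24.3 ± 4.08 in WT (limma adjusted p = 0.872), and the labels do not say how the allele acts on its RNA. No listed gene of these 4 lists was at 0 in all libraries. RNA of 3 Y-linked genes was at a value of 1 or more in 0 nmf219 libraries and in WT replicates 3, 4 and 5. Xist was at 2555 to 3481 in nmf219 and at 3785 and 3526 in WT replicates 1 and 2. In WT replicates 3, 4 and 5 it was at 15.7, 0.668 and 2.42. Male libraries were thus found only in WT, and an effect of sex is in part confounded with genotype. The nmf219 libraries carry the numbers 7050 to 7054 and the WT libraries 7058 to 7062, and an effect of that order cannot be told apart from genotype. In a whole ear, fewer cells of a type and less RNA per cell cannot be told apart.

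Hmx2 and Hmx3 are neighbours on chromosome 7. Hmx3 (ENSMUSG00000040148) lies at 131542867 to 131544925 and Hmx2 (ENSMUSG00000050100) at 131548773 to 131558014, both on the + strand, with 3847 bp between them. The gene models have the same ends in GENCODE M21, which is on GRCm38. In that annotation both lie within a model of Fgfr2 on the opposite strand, with no shared exon. The 250 bases before each annotated start are shown for this pair because the genes adjoin while the sequence before their starts differs. They come from RefSeq for GRCm38.p6, whose starts differ from the gene ends above: the Hmx3 window runs past the start at 131542867 into the gene as the table places it, the upstream Hmx2 window ends short of 131548773, and the downstream one lies within the Hmx2 gene. They are written 5′ to 3′ on the + strand. Capitals mark matches to TATAAA or CCAAT on either strand, and ATTGG is CCAAT on the other strand.
Hmx3, chr7:131542713-131542962: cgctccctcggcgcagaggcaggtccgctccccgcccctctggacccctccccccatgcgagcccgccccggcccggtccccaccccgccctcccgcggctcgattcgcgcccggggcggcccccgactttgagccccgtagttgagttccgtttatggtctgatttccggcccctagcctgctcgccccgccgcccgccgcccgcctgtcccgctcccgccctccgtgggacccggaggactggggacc
Hmx2, upstream start, chr7:131548507-131548756: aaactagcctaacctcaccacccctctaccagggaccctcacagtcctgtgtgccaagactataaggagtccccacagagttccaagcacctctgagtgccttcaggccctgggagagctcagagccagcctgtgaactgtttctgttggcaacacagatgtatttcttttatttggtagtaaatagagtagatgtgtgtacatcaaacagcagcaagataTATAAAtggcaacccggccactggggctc
Hmx2, downstream start, chr7:131554043-131554292: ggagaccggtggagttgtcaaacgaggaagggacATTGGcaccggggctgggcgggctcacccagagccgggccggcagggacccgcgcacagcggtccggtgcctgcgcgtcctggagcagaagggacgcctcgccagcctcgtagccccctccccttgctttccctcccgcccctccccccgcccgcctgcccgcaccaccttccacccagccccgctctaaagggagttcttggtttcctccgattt
The window before Hmx3 held 31 CG dinucleotides and neither motif, and 94.8% of 32536 windows of the same length before annotated starts held fewer. The upstream window of Hmx2 held 1 CG dinucleotide and a TATAAA, which occurs in 12.3% of all windows. The downstream window held 21 CG dinucleotides and a CCAAT, a motif of 33.8% of windows. The T-box half-site AGGTGTGA, searched on both strands, was in 1.12% of all windows and in 0 of the 8 windows of Hmx2, Hmx3, Lmo4, Bmp4 and Lrig3. Chd7, Bmp2 and Ntn1 were not searched. No binding was measured, so these matches are a description of the letters alone.

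Hmx2 had normalized values of 7.32, 8.30, 8.17, 8.80 and 10.1 in nmf219 replicates 1 to 5, against 9.98, 9.91, 10.1, 9.19 and 9.12 in WT replicates 1 to 5. A value is the reads of a gene scaled by a factor for each library, and the values of a library sum to 990643 to 1009217. In nmf219, 4 libraries lay below all WT libraries, and replicate 5 lay among the highest WT values. The mean was 8.53 ± 1.01 in nmf219 and 9.66 ± 0.472 in WT (SD, n = 5 each). The log2 fold change of nmf219 over WT, on the scale of log2(value + 1), was -0.17 (SE 0.07, 95% interval -0.33 to -0.0067). With limma its unadjusted p was 0.0425 and its p adjusted over all genes 0.680. Without nmf219 replicate 5 the log2 fold change was -0.22 (limma adjusted p = 0.470), and without nmf219 replicate 1 it was -0.12 (limma adjusted p = 0.926). It was -0.24 among libraries with description numbers 2162 to 2169 and -0.05 among numbers 2199 to 2208. What these numbers stand for is not given in the labels; the first range holds 3 nmf219 and 2 WT libraries and the second 2 nmf219 and 3 WT.

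Hmx3 had values of 5.92, 6.19, 6.83, 6.43 and 7.58 in nmf219 replicates 1 to 5, against 7.06, 8.33, 6.22, 7.90 and 6.39 in WT. The genotypes overlapped, with WT replicates 1, 3 and 5 inside the nmf219 range. The mean was 6.59 ± 0.647 in nmf219 and 7.18 ± 0.921 in WT (SD, n = 5 each), which is -0.10 as a log2 fold change (SE 0.09; limma adjusted p = 0.768). Hmx3 was the lowest of the 8 in reads, with 196 to 331 per library, at which counting alone gives an SD of 5.50% to 7.14%; its SD was 9.81% of the mean in nmf219 and 12.8% in WT. The ratio of Hmx2 to Hmx3 in a library was 1.20 to 1.37 in nmf219 and 1.16 to 1.63 in WT, a wider range in WT. Counting error of both genes enters this ratio, with an SD of 4.94% to 6.25% for Hmx2. Its part in the spread of the ratio was not tested. With the mean of the skeletal muscle genes as a covariate the log2 fold change of Hmx3 turned to 0.05 (limma adjusted p = 1.00). Hmx2 and Hmx3 both act as transcription factors of the vestibular ear, and loss of both in mice removes most of its dorsal structures.

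**Figure D1:**
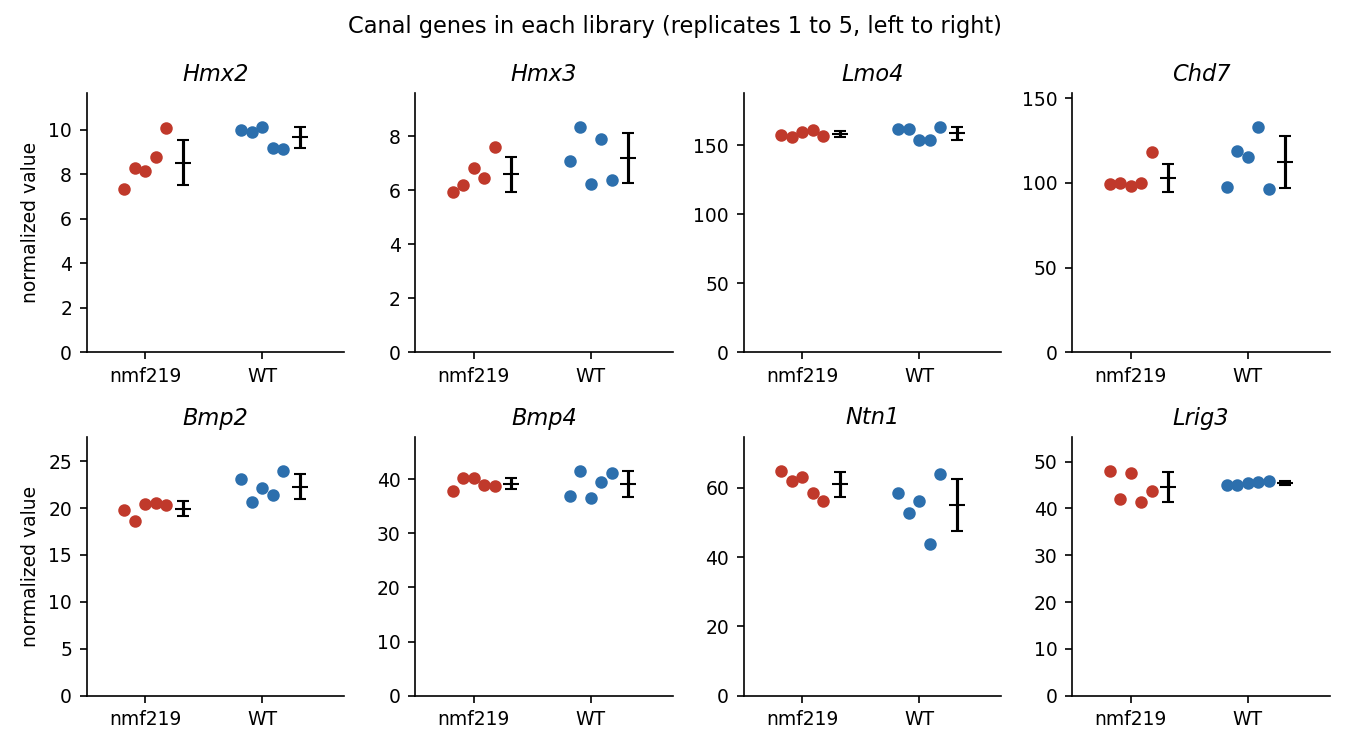
Normalized value (y axis, linear from 0) of each canal gene in the 5 nmf219 libraries (left, red) and the 5 WT libraries (right, blue), with the mean and SD beside the points. The groups overlap for 7 of the 8 genes, and for Bmp2 all nmf219 points lie below all WT points.

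Lmo4 encodes a LIM-only protein that joins transcription factors in complexes, and mice without it lack canals. The gene (ENSMUSG00000028266) lies on chromosome 3 at 144188530 to 144205220, - strand. It was the most abundant of the 8. Its values were 157, 156, 160, 161 and 157 in nmf219 and 162, 162, 154, 154 and 163 in WT, replicates 1 to 5. All nmf219 libraries lay within the WT range. The log2 fold change was -0.0056 (SE 0.03, limma adjusted p = 0.963), with a 95% interval of -0.07 to 0.05. On the linear scale that interval reaches from 4.45% lower to 3.84% higher in nmf219.

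Chd7 encodes a chromatin remodeller whose loss of one copy disturbs the canals in mice and causes CHARGE syndrome in people. The gene (ENSMUSG00000041235) lies on chromosome 4 at 8690406 to 8867659, + strand. Chd7 was at 99.5, 99.8, 98.5, 99.7 and 118 in nmf219 replicates 1 to 5 and at 97.6, 119, 115, 133 and 96.6 in WT replicates 1 to 5. The values fell near 100 in 6 libraries and at 115 or more in nmf219 replicate 5 and WT replicates 2, 3 and 4. The mean was 103 ± 8.37 in nmf219 and 112 ± 15.3 in WT (SD, n = 5 each), which is -0.11 as a log2 fold change (SE 0.09; limma adjusted p = 0.751). It was -0.11 among description numbers 2162 to 2169 and -0.08 among 2199 to 2208. Without WT replicate 4 it was -0.05 (limma adjusted p = 0.994), and without WT replicate 5 it was -0.17 (limma adjusted p = 0.374). At 3115 to 5570 reads per library, counting alone gives an SD of at most 1.79%.

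Ntn1 (ENSMUSG00000020902), the secreted netrin of the fusion plate, lies on chromosome 11 at 68209364 to 68400823, - strand. It was at 64.9, 62.1, 63.1, 58.5 and 56.2 in nmf219 and at 58.5, 52.6, 56.2, 43.6 and 63.9 in WT, replicates 1 to 5. The 4 lowest libraries were WT replicates 4, 2 and 3 and nmf219 replicate 5, the same 4 that were highest for Chd7. The mean was 61.0 ± 3.54 in nmf219 and 55.0 ± 7.55 in WT (SD, n = 5 each), which is 0.16 as a log2 fold change (SE 0.09; limma adjusted p = 0.699). Single WT libraries moved this difference in both directions. Without WT replicate 4 the log2 fold change was 0.08 (limma adjusted p = 0.993), and without WT replicate 5 it was 0.21 (limma adjusted p = 0.288). It was 0.13 within each range of description numbers.

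The embryonic globin gene Hbb-y, which marks red cells of the early embryo, was high in the same libraries. It was at 6.15, 4.28, 3.66, 4.15 and 33.0 in nmf219 replicates 1 to 5 and at 11.4, 15.8, 20.5, 44.4 and 3.10 in WT replicates 1 to 5. Its 4 highest libraries were the 4 highest for Chd7 and the 4 lowest for Ntn1. With Hbb-y as a covariate the log2 fold change was -0.0054 for Chd7 (limma adjusted p = 0.998), 0.06 for Ntn1 (adjusted p = 0.982), -0.04 for Hmx3 (adjusted p = 0.993) and -0.12 for Hmx2 (adjusted p = 0.933). For Bmp2 it was -0.17 (limma adjusted p = 0.633). The skeletal muscle genes as a covariate moved the same genes, to -0.03 for Chd7 and 0.04 for Ntn1 (limma adjusted p = 1.00 for each). With Xist as a covariate Chd7 was at -0.06 (limma adjusted p = 0.991) and Ntn1 at 0.11 (adjusted p = 0.985). The summed value of 8 erythroid genes was highest in WT replicate 5, at 9693, where Hbb-y was lowest. It was lowest in WT replicate 4, at 2571, where Hbb-y was highest. Most of this sum is Hba-a1, at a mean of 2609 in nmf219 and 2181 in WT, and Hbb-bs, at 2394 in nmf219 and 2021 in WT. Hbb-y adds little to it, so the sum cannot show whether the order of Hbb-y holds for other embryonic globins. What else sets these libraries apart was not tested.

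**Figure D2:**
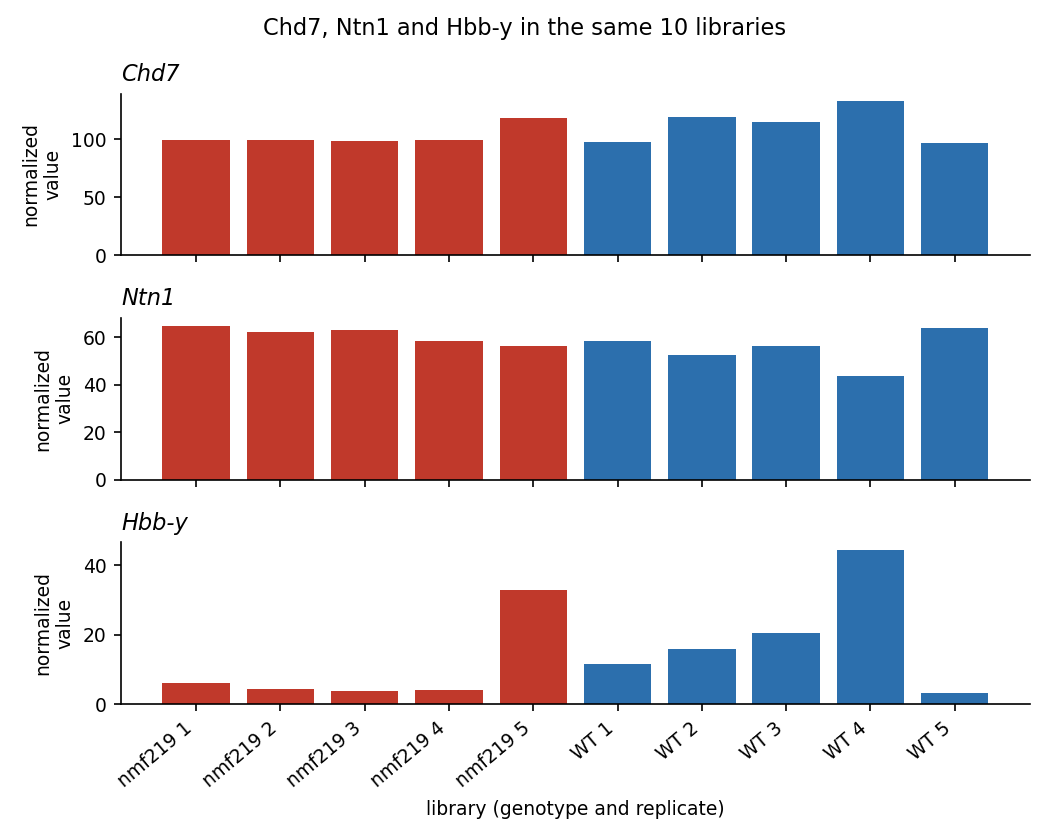
Normalized value (y axis, linear from 0) of Chd7, Ntn1 and Hbb-y in each of the 10 libraries (x axis, nmf219 replicates 1 to 5 in red, then WT replicates 1 to 5 in blue). In nmf219 replicate 5 and WT replicates 2, 3 and 4, Chd7 and Hbb-y are at their 4 highest values and Ntn1 is at its 4 lowest.

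Bmp2 and Bmp4 encode secreted ligands of the BMP pathway. Bmp2 is needed for canal outgrowth in mice, and Bmp4 marks and helps to build the cristae, the sensory patches at the canal ends. Bmp2 (ENSMUSG00000027358) lies on chromosome 2 at 133552159 to 133562885, + strand, and Bmp4 (ENSMUSG00000021835) on chromosome 14 at 46383520 to 46390669, - strand. Bmp2 was at 19.8, 18.6, 20.5, 20.5 and 20.3 in nmf219 replicates 1 to 5 and at 23.2, 20.7, 22.1, 21.4 and 24.0 in WT replicates 1 to 5. The ranges did not overlap, though the highest nmf219 library, at 20.5, and the lowest WT library, at 20.7, were close. The mean was 19.9 ± 0.804 in nmf219 and 22.3 ± 1.33 in WT (SD, n = 5 each), a log2 fold change of -0.15 (SE 0.05, 95% interval -0.26 to -0.05). Its unadjusted p with limma was 0.00927 and its p adjusted over all genes 0.680, so it did not pass. Lower Bmp2 in nmf219 was found in both ranges of description numbers, at -0.18 and -0.12. In the 11 refits with all libraries and the 10 without 1 library, the log2 fold change lay between -0.18 and -0.13, with a limma adjusted p of 0.297 or more. With Xist as a covariate, which stands for the sex of the embryos, it was -0.13 and the unadjusted p was 0.0677 (limma adjusted p = 0.985). The sums of the brain list, most of them Zic1, were also separate and lower in nmf219, and their part in this result was not tested.

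Bmp4 showed no such difference. Its values were 37.7, 40.2, 40.2, 38.9 and 38.7 in nmf219 and 37.0, 41.5, 36.4, 39.4 and 41.0 in WT. All nmf219 libraries lay within the WT range. The log2 fold change was 0.0037 (SE 0.04, limma adjusted p = 0.983), with an interval that on the linear scale reached from 6.06% lower to 7.01% higher. Its sign changed under several alternatives. In GENCODE M21 an exon of the gene model Gm15217 on the opposite strand overlaps an exon of Bmp4, and the strand setting of the counting is not given in the sources used here. The ratio of Bmp4 to Bmp2 in a library was 1.97 ± 0.112 in nmf219 and 1.76 ± 0.168 in WT (SD, n = 5 each), with overlapping ranges of 1.90 to 2.16 in nmf219 and 1.60 to 2.01 in WT.

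Lrig3 encodes a membrane protein with leucine-rich repeats that restricts Ntn1 RNA in the mouse ear and protects the lateral canal. The gene (ENSMUSG00000020105) lies on chromosome 10 at 125966219 to 126015359, + strand, in the table, while GENCODE M21 starts it at 125966168. Lrig3 was at 48.0, 41.9, 47.6, 41.3 and 43.7 in nmf219 and at 44.9, 44.9, 45.4, 45.7 and 45.8 in WT, replicates 1 to 5. The WT libraries were nearly equal, and all of them lay inside the wider nmf219 range. The SD was 7.07% of the mean in nmf219 and 0.919% in WT, and the spread in WT is smaller than the SD of 2.29% to 2.64% that counting alone gives at 1430 to 1913 reads. The log2 fold change was -0.03 (SE 0.04, limma adjusted p = 0.875). The ratio of Lrig3 to Ntn1 was 0.740, 0.675, 0.755, 0.707 and 0.778 in nmf219 and 0.768, 0.853, 0.807, 1.05 and 0.717 in WT. The ratios overlapped, and the highest was that of WT replicate 4, where Ntn1 was lowest.

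**Figure D3:**
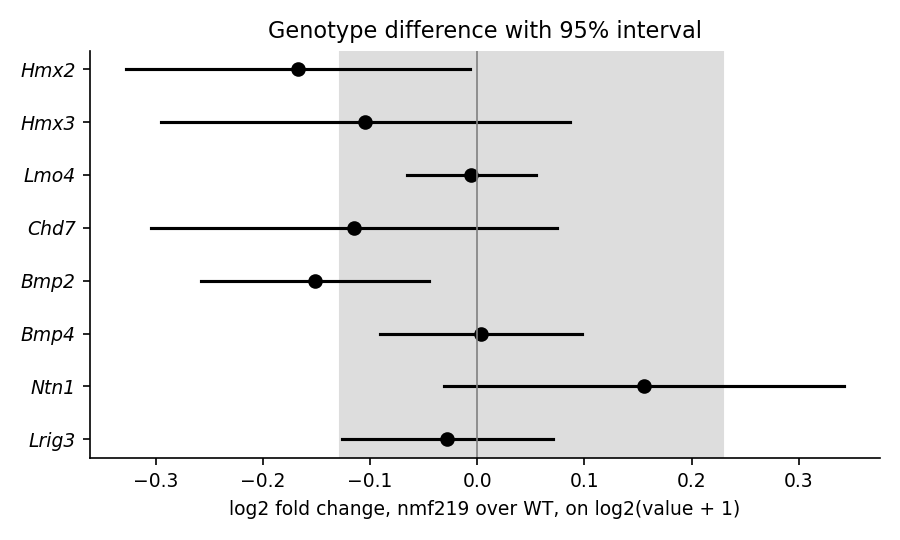
Log2 fold change of nmf219 over WT on log2(value + 1) (x axis) for each canal gene, with its 95% interval from limma; the grey band holds the middle of all 15472 genes, from the 5th percentile at -0.13 to the 95th at 0.23. The intervals of Bmp2 and Hmx2 lie below 0 and those of the other 6 genes include it.

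Counted together, 0 of the 8 genes passed limma's test at an adjusted p under 0.05, which 0.084% of all genes did (13), 0.0129% higher and 0.0711% lower in nmf219. At an unadjusted p under 0.05 there were 2 of 8, Bmp2 and Hmx2, both lower, against 7.11% of all genes, 3.23% lower and 3.88% higher. Hmx2 was under an unadjusted p of 0.05 in 10 of 21 alternatives and Bmp2 in 20 of 21. These alternatives reuse the same libraries, and the fits within each range of description numbers are not among them. In numbers 2162 to 2169 alone the unadjusted limma p was 0.0773 for Bmp2 and 0.0389 for Hmx2. In numbers 2199 to 2208 alone it was 0.131 for Bmp2 and 0.648 for Hmx2. The ranges of the genotypes were separate for 1 of 8, Bmp2, against 1.17% of all genes in either direction and 0.782% with nmf219 below WT. The median log2 fold change was -0.07 over the 8 genes and -0.0055 over all genes, and 6 of 8 were lower in the mean, as were 53.1% of all genes. The 8 genes were chosen with earlier results of these data known, which limits what these shares can show. In the authors' deposited table, whose own test gives 505 genes at an FDR under 0.05, the FDR of each of the 8 genes was 1, and the smallest unadjusted p was 0.121, for Hmx2. The authors' deposited table gives log2 fold changes of -0.18 for Hmx2 and -0.16 for Bmp2. In the authors' test the unadjusted p of Bmp2 was 0.143, so its low unadjusted p with limma depends on the test used.

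Per length, Lmo4 stood highest and Hmx2 lowest in both genotypes. As a normalized value per kilobase of exon in GENCODE M21, Lmo4 was at 44.8 ± 0.553 in nmf219 and 45.0 ± 1.33 in WT, and Bmp4 at 17.4 ± 0.465 in nmf219 and 17.4 ± 1.04 in WT (SD, n = 5 each). Ntn1 came next at 9.71 ± 0.564 in nmf219 and 8.76 ± 1.20 in WT, then Chd7 at 7.48 ± 0.607 in nmf219 and 8.15 ± 1.11 in WT. Below them were Bmp2 at 5.61 ± 0.226 in nmf219 and 6.26 ± 0.374 in WT, and Lrig3 at 5.34 ± 0.377 in nmf219 and 5.43 ± 0.0499 in WT. Lowest were Hmx3 at 4.52 ± 0.444 in nmf219 and 4.93 ± 0.632 in WT, and Hmx2 at 2.65 ± 0.314 in nmf219 and 3.01 ± 0.147 in WT. The order was the same in both genotypes. Neighbours in it had separate ranges except Bmp2 and Lrig3 in nmf219, Ntn1 and Chd7 in WT, and Lrig3 and Hmx3 in both. By exon length all isoforms are counted together, so the level of a gene that uses short isoforms is understated.

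**Figure D4:**
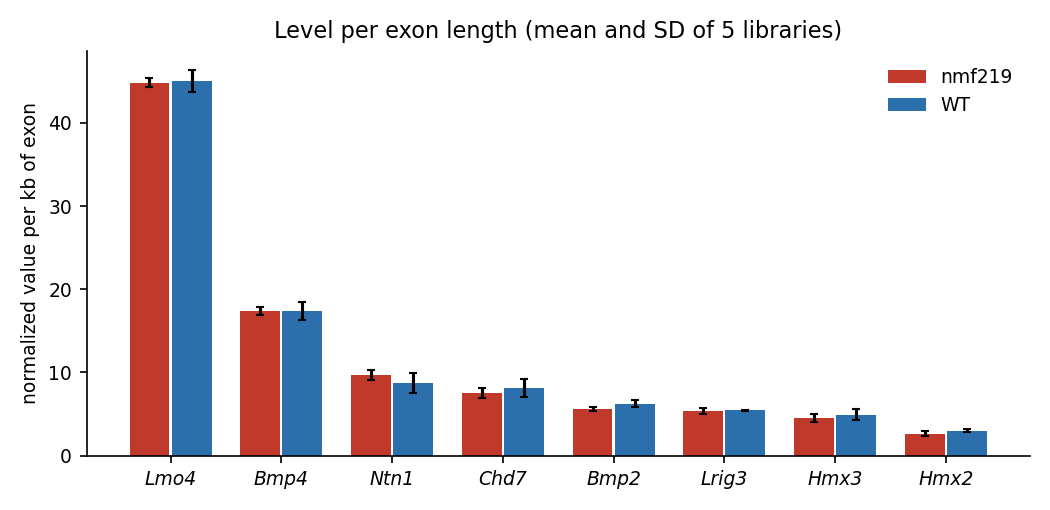
Normalized value per kilobase of exon (y axis, linear from 0) of the 8 canal genes in nmf219 (red, left bar) and WT (blue, right bar), as the mean and SD of 5 libraries each. Lmo4 is at about 45 in both genotypes, and the other 7 genes are at 17.4 or less.

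The 8 genes did not vary together from library to library. Likeness was measured as the root mean square distance between profiles over the 10 libraries, centred on the genotype mean and scaled, in which 0 is the same profile, 1.41 an unrelated one and 2 the opposite one. Chd7 and Ntn1 were near opposite, at 1.95. Chd7 and Hmx3 were at 0.843, the closest pair among the 8, and Hmx2 and Hmx3 were at 1.04, so that Hmx3 ranked 1506 among 13789 genes by nearness to Hmx2. The nearest genes to Chd7 were Ccnd1 (0.138), a cyclin of the cell cycle, and Dusp9 (0.157), a phosphatase of MAP kinases. Hbb-y was at 0.462 from Chd7 and ranked 604 among 13789 genes by nearness to it, so many genes lay nearer. From Ntn1, Hbb-y was at 1.89. Those nearest to Ntn1 were Zfp651 (0.111) and Fndc1 (0.155). For Hmx3 they were Oard1 (0.204) and Necab3 (0.301), for Lmo4 Acox3 (0.201) and Dpyd (0.235), and for Bmp2 Nbeal2 (0.309) and Fut10 (0.328). Bmp4 was nearest to Ube2w (0.373) and Padi2 (0.387), Lrig3 to Zdhhc8 (0.416) and Borcs5 (0.421), and Hmx2 to Xkr6 (0.450) and Rasgrp1 (0.454). With 10 libraries and this many genes some profiles lie close in any case, and these distances are a description.

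The other genes of the pathways were read from lists of 110 genes, of which 102 were in the table. Of these, 0 rose and 2 fell in nmf219, Tbx3 and Nr4a3, against 0.0129% of all genes called higher and 0.0711% called lower. An unadjusted p under 0.05 with limma was found for 20 of the 102, 15 lower and 5 higher, against 3.23% of all genes lower and 3.88% higher. The median log2 fold change of the 102 was -0.0086. The lists were chosen with earlier results of these data known, so an excess over the share of all genes cannot be read as a result.

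Both genes that fell are among the canal transcription factors, of which 19 were measured. Nr4a3, an orphan nuclear receptor needed for canal growth, was at 6.60 ± 0.718 in nmf219 and 11.0 ± 1.60 in WT (SD, n = 5 each), which is -0.65 as a log2 fold change (SE 0.10; limma adjusted p = 0.0397). The T-box gene Tbx3 was at 23.0 ± 0.552 in nmf219 and 34.0 ± 0.637 in WT (log2 fold change -0.55, SE 0.03, limma adjusted p = 1.45e-05).

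Among 9 relatives of the BMP ligands, 0 passed. Bmp1, a protease rather than a BMP ligand, was the most abundant at 256 in nmf219 and 242 in WT. The furthest apart were Gdf6, higher in the mean at 9.31 ± 0.855 in nmf219 and 7.47 ± 0.720 in WT, and Bmp3, lower in the mean at 33.1 ± 2.19 in nmf219 and 37.9 ± 1.40 in WT (limma adjusted p = 0.510 and 0.403). Among the 10 receptors and SMAD proteins, which carry the signal to the nucleus, 0 passed either. Smad5, a transducer, was at 261 in nmf219 and 265 in WT, and the log2 fold changes ran from -0.16 for the receptor gene Acvr2b to 0.08 for the receptor gene Acvr1. Of 14 inhibitors 0 passed, and 9 were higher in the mean, with a median log2 fold change of 0.06. Grem1, a secreted antagonist, differed most, at 18.2 ± 2.74 in nmf219 and 13.7 ± 4.86 in WT (log2 fold change 0.44, limma adjusted p = 0.680). Noggin (Nog) was lower in the mean by 0.12 on that scale, and Twsg1, the most abundant, was at 234 in nmf219 and 238 in WT. Of 8 targets of BMP signalling 0 passed. Msx2, a homeobox gene, was at 4.78 ± 0.557 in nmf219 and 6.05 ± 0.452 in WT with separate ranges, a log2 fold change of -0.29 (limma adjusted p = 0.517). Id3, the most abundant target, was at 133 in nmf219 and 136 in WT, and Atoh8 was at 11.1 in nmf219 and 10.5 in WT.

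In the list of 12 netrins, netrin receptors and LRIG relatives 0 passed. The receptor gene Neo1 was at 358 in nmf219 and 357 in WT, and Unc5c at 137 ± 8.17 in nmf219 and 172 ± 34.6 in WT (log2 fold change -0.31, limma adjusted p = 0.680). Unc5a, another netrin receptor gene, was at 3.24 in nmf219 and 2.73 in WT. Of the 13 relatives and partners of Chd7 and Lmo4 0 passed, and 0 had an unadjusted p under 0.05; Chd3, a remodeller of the NuRD complex, was at 572 in nmf219 and 568 in WT. Lmo2 was at 13.7 in nmf219 and 12.4 in WT and Lmo1 at 3.76 in nmf219 and 4.23 in WT. Of 17 growth signals and matrix genes 0 passed. Hapln1, a link protein that also belongs to the cartilage list, was at 707 ± 30.6 in nmf219 and 946 ± 261 in WT with separate ranges (log2 fold change -0.38, limma adjusted p = 0.680). The proteoglycan gene Vcan was at 924 in nmf219 and 860 in WT, and Ahr, a ligand-activated factor, at 53.9 in nmf219 and 47.6 in WT.

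**Figure D5:**
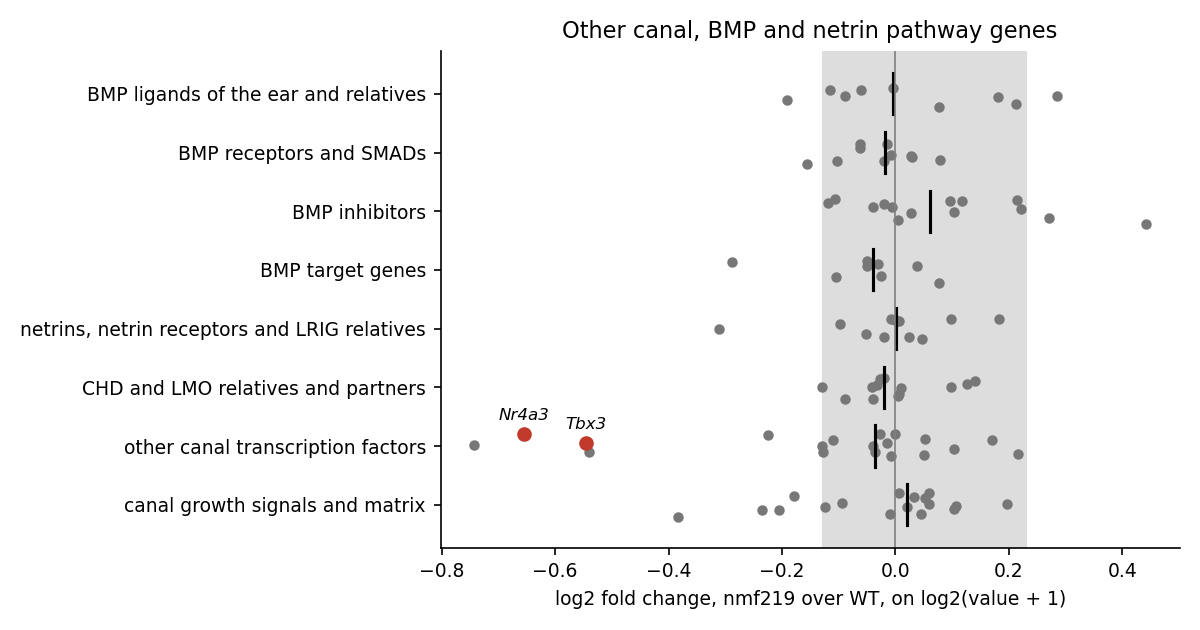
Log2 fold change of nmf219 over WT on log2(value + 1) (x axis) for the 102 measured pathway genes in 8 lists; black bars are list medians, red points are genes past limma's test and the grey band runs from the 5th to the 95th percentile of all genes. Nr4a3 and Tbx3 are the points past the test, and list medians lie between -0.04 and 0.06.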

How the data were processed

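RNA from whole inner ears was sequenced in 10 libraries, 5 per genotype, grouped by their titles. The deposited values are a normalized signal, whose headers read counts_cpm. Each column is a whole multiple of 1 step (tolerance 0.01), worth 0.0239 to 0.0317, and sums to 990643 to 1009217. Beside these stand the log2 fold change, signed fold score, p-value and FDR of a test the authors ran. The aligner, counter, build, annotation and strand setting are not stated in the labels or headers. Of 15309 identifiers found in GENCODE M21, 79.8% had the same start and end.

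Genotype was tested with limma 3.58.1 (R 4.3.3, trend) on log2(value + 1) over all 15472 genes, Benjamini-Hochberg adjusted, threshold 0.05, after a check on simulated data. Each member is named; from each pathway list, the genes past the test, otherwise the most abundant and those furthest apart with a mean of at least 1. The members and lists were chosen with earlier results of these data known. For likeness, each gene's 2 nearest named genes with a mean of at least 1 are given. The labels do not state that replicate numbers pair the samples, and the main test used no pairing. Counting intervals cover counting error only. Sequences are from RefSeq (GRCm38.p6).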

Additional observations from a re-analysis of the deposited data

Results flagged for a closer look

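Chd7 in nmf219 replicate 5 stood apart from the other 4 nmf219 libraries, at 118 against 98.5 to 99.8, with a gap of 0.933 of the range of the group. The ratio of Bmp4 to Bmp2 in nmf219 replicate 2 was 2.16, against 1.90 to 1.96 in the other 4, with a gap of 0.752 of the range. Of 22 groups of 5 values tested, these 2 exceeded Dixon's critical value of 0.71, which chance alone does in about 1 of 20.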

How the results depend on the processing

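The count of canal genes past the test was 0 in the 11 alternatives that kept all libraries and in the 10 refits without 1 library. Over all genes 13 passed, and 4 with a mean value of at least 5, 2 with the replicate block, 2 with Xist as a covariate, 4 with the skeletal muscle genes as a covariate, 33 with Hbb-y as a covariate, and 7 to 18 without 1 library. The labels do not state that replicate numbers pair the samples. Deviations of same-numbered libraries correlated at -0.48 to 0.14, which cannot exclude a shared litter or batch. Under the replicate block 0 canal genes passed. Signs turned in 4 genes. Bmp4 was at -0.0115 with the description number range as a block, -0.0117 with Hbb-y as a covariate, -0.0679 in numbers 2162 to 2169 alone and -0.0205 to 0.0257 without 1 library. Lmo4 was at 0.0019 with the muscle covariate, 0.0227 in numbers 2199 to 2208 alone and -0.0176 to 0.0040 without 1 library. Lrig3 was at 0.0031 with the cartilage covariate and 0.0134 in numbers 2162 to 2169 alone, and Hmx3 at 0.0476 with the muscle covariate. The causes were not tested. Signs did not turn for Hmx2, Chd7, Bmp2 and Ntn1, but sizes moved: over the 21 alternatives Chd7 ran from -0.17 to -0.0054 and Ntn1 from 0.04 to 0.21, with the muscle covariate at -0.03 for Chd7 and 0.04 for Ntn1. The unadjusted p of Hmx2 was 0.0940 with the replicate block, 0.0581 with the range block, 0.137 with the muscle and 0.121 with the Hbb-y covariate, and under 0.05 in 3 of 10 refits without 1 library. The planned count tests on recovered reads, edgeR and DESeq2, were not run.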
